A study of Homo sapiens with 12 samples.

Results

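The genes described here are 51 genes of mitosis, the spindle and the mitotic kinesins, named as a list and all measured, out of 11963 genes on the arrays. They were chosen by name, with earlier results of these data known, so the counts below describe this list and are not independent support. Each gene is represented by 1 probe set, the brightest on average over the 12 arrays of those assigned to that gene alone. They were sorted by function into 9 classes: 10 kinesins, 7 spindle proteins, 6 genes of the CDK1 engine (CDK1, cyclins and CDC25 phosphatases), 6 mitotic kinases, 5 genes of the spindle checkpoint, 6 of the centromere and kinetochore, 6 of condensin and topoisomerase, 4 of anaphase and cytokinesis, and the transcription factor gene FOXM1. RCC4 is an established line of human clear cell renal carcinoma cells. All cells were transfected for 2 days with siRNA, either a non-targeting control (siNT) or one against YAP (siYAP), a co-activator of transcription that the Hippo pathway restrains. They were then kept for 7 hours in DMSO, the vehicle, or in 1 µM erastin, an inhibitor of cystine import that can cause ferroptosis. Each siRNA was combined with each treatment, which gave 4 groups of 3 arrays. The labels do not give the siRNA sequences or whether more than 1 siRNA was used.

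Entry into mitosis is driven by CDK1 bound to cyclin A or B, which CDC25 phosphatases switch on, together with the Polo-like and Aurora kinases. Kinesins and other spindle proteins then build the spindle and move chromosomes, the checkpoint holds anaphase until kinetochores are attached, and separase, centralspindlin and ECT2 complete separation and cytokinesis. Many of these genes are transcribed together late in the cell cycle, through promoter elements bound by the MuvB complex with B-MYB and FOXM1 (the CHR element) and by NF-Y (the CCAAT box). In bulk RNA, fewer cells in G2 and mitosis and less RNA of these genes per cell cannot be told apart.

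Because these genes moved together, their promoters were read from RefSeq windows of the build GRCh38.p14, each with 250 bases before and 50 after the first listed start site. The windows of the 3 genes with the largest falls after YAP silencing in DMSO and of the gene with the smallest on its brightest probe set are shown 5′ to 3′ on the gene's strand. Capitals mark TTTGAA (the CHR letters) and CCAAT (the NF-Y letters) on either strand, so that TTCAAA and ATTGG are their reverse forms. All 4 genes lie on the + strand, KIF15 at chr3:44761544-44761843, KIF23 at chr15:69414099-69414398, HMMR at chr5:163460382-163460681 and SMC4 at chr3:160399400-160399699, and each window covers the upstream flank and the first transcribed bases.
KIF15: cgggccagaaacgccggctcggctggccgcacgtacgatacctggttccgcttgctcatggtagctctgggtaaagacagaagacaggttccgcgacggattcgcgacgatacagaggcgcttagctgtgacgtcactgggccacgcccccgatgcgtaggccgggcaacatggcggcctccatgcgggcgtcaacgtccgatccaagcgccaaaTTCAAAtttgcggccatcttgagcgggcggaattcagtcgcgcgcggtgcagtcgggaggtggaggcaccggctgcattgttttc
KIF23: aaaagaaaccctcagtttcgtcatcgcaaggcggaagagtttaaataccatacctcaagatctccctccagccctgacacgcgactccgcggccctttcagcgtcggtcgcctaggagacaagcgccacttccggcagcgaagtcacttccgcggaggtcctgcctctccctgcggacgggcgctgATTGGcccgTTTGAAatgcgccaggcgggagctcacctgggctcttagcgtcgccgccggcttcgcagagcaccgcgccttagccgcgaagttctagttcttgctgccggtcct
HMMR: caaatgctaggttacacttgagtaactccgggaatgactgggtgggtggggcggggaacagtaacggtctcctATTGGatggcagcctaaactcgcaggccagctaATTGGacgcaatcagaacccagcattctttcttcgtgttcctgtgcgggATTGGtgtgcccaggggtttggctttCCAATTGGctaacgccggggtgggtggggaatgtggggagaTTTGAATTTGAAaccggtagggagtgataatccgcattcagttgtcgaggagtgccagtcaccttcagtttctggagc
SMC4: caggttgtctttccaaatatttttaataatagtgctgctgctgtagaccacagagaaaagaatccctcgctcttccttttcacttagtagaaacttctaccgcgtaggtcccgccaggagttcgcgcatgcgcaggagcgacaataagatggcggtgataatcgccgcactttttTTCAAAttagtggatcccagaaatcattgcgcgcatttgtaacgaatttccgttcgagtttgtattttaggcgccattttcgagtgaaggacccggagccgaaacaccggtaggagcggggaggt
KIF15 and SMC4 each held 1 CHR match and no NF-Y match, KIF23 held 1 of each, and HMMR held 2 CHR and 5 NF-Y matches.

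A window was listed for 44 of the 51 genes. Of these, 29 (65.9%, 95% Wilson interval 51.1% to 78.1%) held TTTGAA on either strand, against 11% of the windows of 9563 measured genes. The interval assumes independent draws, which genes chosen as a list are not, so it is a rough guide and not a test. CCAAT was present in 31 (70.5%), against 37.3%, and 18 of the 44 windows (40.9%) held it at least 2 times, against 13.1%. Both words occurred in 22 windows (50%), against 4.65%, and 6 held neither. Counted from the start site, the median position was -28.5 for CHR matches and -69 for NF-Y matches. The E2F words TTCCCGC (9.09% against 9.51%) and TTGGCGC (13.6% against 4.53%) were found in 4 and 6 windows. GGAATG, the core letters of the TEAD factors through which YAP acts, was found in 5 (11.4%, against 11.3%). The NF-Y and E2F words shared letters in 1 window. Median GC content was 61.5% in these windows and 64% in all. A match shows letters only, not a bound site. Letters outside these windows were not searched, so the shares, that of the TEAD letters included, say nothing of sites farther away. Among the 44 genes, those with the CHR letters had a median log2 change of -1.13 after silencing in DMSO and those without -1.04. The medians with and without the letters were -1.07 and -1.04 for NF-Y, -1.09 and -1.07 for TTCCCGC, -1.06 and -1.07 for TTGGCGC, and -1.29 (5 genes) and -1.05 (39 genes) for the TEAD letters, all without a test.

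Array medians were 6.49 to 6.52, but the deposited values were equalised between arrays, so these do not show how alike the arrays were. Correlations within groups were 0.9955 to 0.9986, and the number of arrays limits the precision. YAP1, the silenced gene, read 8.47 to 8.65 on the 6 siNT arrays and 4.18 to 6.21 on the 6 siYAP arrays, as labelled for every array. The highest siYAP value was that of replicate 2 with erastin. Of the renal carcinoma markers, PAX8 (10.61) and VIM (13.59) were high in siNT with DMSO, whereas LRP2 stood at 2.81. Endothelial, fibroblast and immune markers had median levels of at most 4.66 in every group. Their summed linear levels in siNT with DMSO were 202 to 225, 425 to 445 and 191 to 196. In siYAP with DMSO they were 217 to 219, 470 to 509 and 194 to 197. Of these 27 markers, 1 was called after silencing in DMSO (RGS5, a fibroblast and pericyte marker, higher), and none under erastin. Over all genes 15.6% were lower and 18.1% higher in DMSO, and 14.8% and 20% under erastin. The medians of these lists lay below the median gene's level of 7.26. Changes of dim genes are compressed, so the few calls say little.

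YAP silencing in DMSO lowered the RNA of all 51 genes. With the brightest probe set of each gene, the fall ranged from 1.36-fold for SMC4 to 3.24-fold for KIF15, with a median log2 change of -1.07, which is 2.09-fold lower, while the median over all 11963 genes was 0.02. At a limma adjusted p under 0.05, 15.6% of all genes were lower and 18.1% higher. Of the 51 genes, 31 fell at least 2-fold, which 1.78% of all genes did. The 3 siYAP arrays lay below the 3 siNT arrays for all 51, as for 20.7% of all genes. All 51 lay among the lowest 10% of genes by log2 change, and 48 among the lowest 5%. Adjusted p-values for the 51 ran from 2.59e-08 to 0.00044.

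**Figure D1:**
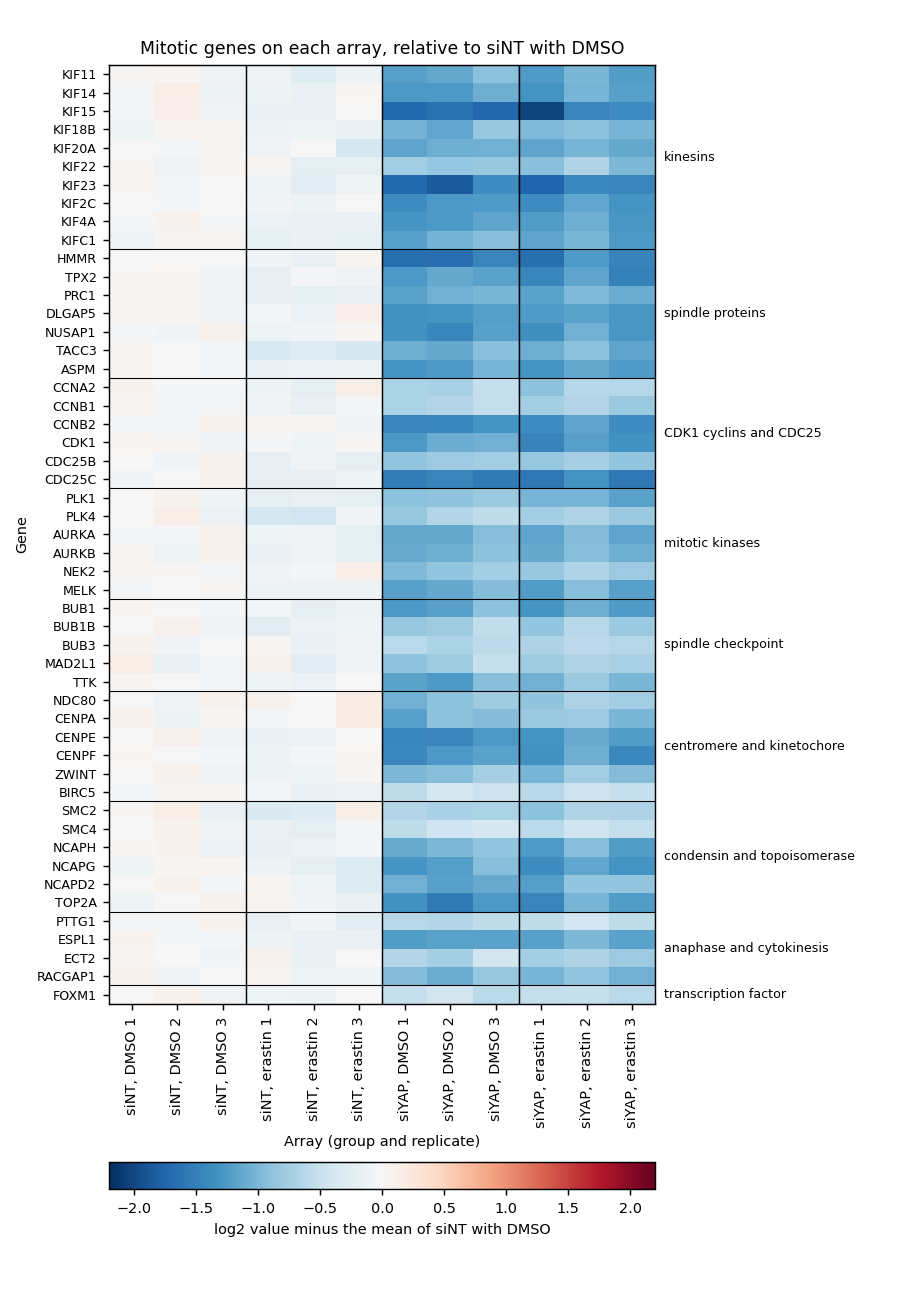
Log2 value of each of the 51 genes (rows, by functional class) on each of the 12 arrays (columns), minus the gene's mean in siNT with DMSO. The 6 siYAP columns are blue, palest for genes such as SMC4 and BIRC5, and KIF15, KIF23, HMMR and CDC25C are darkest. The 6 siNT columns are mostly near white. With erastin, PLK4 and TACC3 are pale blue there, much like the palest siYAP cells.

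The 10 kinesins, motor proteins that build the spindle, move chromosomes or act in cytokinesis, all fell, 9 of them at least 2-fold, with a median log2 change of -1.16. KIF15, a plus-end motor that helps keep the spindle bipolar, fell most. KIF15 stood at 7.44, 7.59 and 7.41 on the siNT arrays with DMSO and at 5.77, 5.84 and 5.75 on the siYAP arrays with DMSO, as log2 values. It was 3.24-fold lower (log2 change -1.70, SE 0.137; limma adjusted p = 1.04e-06). The lowest siNT array (7.41) was far above the highest siYAP array (5.84). KIF23, the motor subunit of centralspindlin in the midzone, came next. KIF23 read 8.91, 8.84 and 8.88 in siNT with DMSO against 7.17, 7.05 and 7.51 in siYAP with DMSO (log2 values). It was 3.11-fold lower (log2 change -1.64, SE 0.110; limma adjusted p = 2.53e-07). KIF22, a chromosome-arm motor, fell least. In siNT with DMSO KIF22 measured 7.65, 7.54 and 7.65, and in siYAP with DMSO 6.84, 6.76 and 6.77, as log2 values. It was 1.77-fold lower (log2 change -0.82, SE 0.086; limma adjusted p = 8.97e-06), still without overlap. The others were KIF2C, which depolymerises microtubules at centromeres (-1.29), KIF4A, a chromosome and midzone motor (-1.24), KIF14, active in cytokinesis (-1.21), KIF20A (-1.10), KIF11, the motor that separates spindle poles (-1.07), and KIFC1, a minus-end motor (-1.05), all as log2 changes; KIF18B fell by 1.00.

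The 7 spindle proteins all fell at least 2-fold, with a median log2 change of -1.20. HMMR, a spindle-associated protein also known as a hyaluronan receptor, led them. HMMR stood at 10.62, 10.62 and 10.63 on the siNT arrays with DMSO and at 8.97, 8.95 and 9.18 on the siYAP arrays with DMSO, as log2 values. It was 3.01-fold lower (log2 change -1.59, SE 0.098; limma adjusted p = 1.3e-07), with the 3 siNT arrays nearly identical. NUSAP1 (-1.32) and DLGAP5 (-1.28), which bind and bundle microtubules, ASPM, a spindle pole protein (-1.20), TPX2, which activates Aurora A on the spindle (-1.19), and PRC1, the midzone crosslinker (-1.07), followed as log2 changes. TACC3, which acts with clathrin on kinetochore fibres, fell least. TACC3 read 9.18, 9.16 and 9.10 in siNT with DMSO against 8.07, 8.03 and 8.23 in siYAP with DMSO (log2 values). It was 2.06-fold lower (log2 change -1.04, SE 0.073; limma adjusted p = 3.35e-07).

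Within the CDK1 engine the 6 genes fell by unequal amounts, with log2 changes from -1.51 to -0.62 and a median of -0.97. CDK1 encodes the kinase itself. CDK1 stood at 11.51, 11.49 and 11.41 on the siNT arrays with DMSO and at 10.21, 10.38 and 10.42 on the siYAP arrays with DMSO, as log2 values. It was 2.19-fold lower (log2 change -1.13, SE 0.077; limma adjusted p = 2.65e-07). Of the cyclin B genes, CCNB2 was 2.65-fold lower (log2 change -1.40, SE 0.072; limma adjusted p = 3.45e-08) and CCNB1 was 1.53-fold lower (log2 change -0.62, SE 0.064; limma adjusted p = 8.72e-06). CCNB1 read 11.14, 11.05 and 11.05 in siNT with DMSO against 10.38, 10.44 and 10.56 in siYAP with DMSO (log2 values). Those groups did not overlap either. CDC25C, a phosphatase that activates CDK1 at mitotic entry, had the largest fall of the class. In siNT with DMSO CDC25C measured 7.91, 7.96 and 8.05, and in siYAP with DMSO 6.45, 6.51 and 6.42, as log2 values. It was 2.85-fold lower (log2 change -1.51, SE 0.073; limma adjusted p = 2.59e-08). CDC25B (-0.81) and the cyclin A gene CCNA2 (-0.64) fell less than 2-fold.

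The 6 mitotic kinase genes fell with a median log2 change of -0.95, and 3 of them at least 2-fold. MELK led, and read 10.33, 10.35 and 10.38 in siNT with DMSO against 9.15, 9.22 and 9.39 in siYAP with DMSO. It was 2.14-fold lower. AURKA, the Aurora kinase of spindle poles, was near it. AURKA stood at 11.69, 11.71 and 11.83 on the siNT arrays with DMSO and at 10.61, 10.62 and 10.80 on the siYAP arrays with DMSO, as log2 values. It was 2.09-fold lower (log2 change -1.07, SE 0.076; limma adjusted p = 4.02e-07). AURKB is the Aurora kinase of centromeres and the midzone. In siNT with DMSO AURKB measured 9.08, 8.97 and 9.14, and in siYAP with DMSO 7.95, 7.98 and 8.15, as log2 values. It was 2.05-fold lower (log2 change -1.04, SE 0.074; limma adjusted p = 4.02e-07). For neither Aurora gene did the groups overlap. PLK1, the Polo-like kinase of mitotic entry and spindle assembly, stood at 7.74, 7.80 and 7.64 and 6.82, 6.84 and 6.92 in the same groups, 1.82-fold lower. NEK2, a centrosome kinase, fell by 0.86. PLK4, the kinase of centriole duplication, fell least of the 6. PLK4 read 8.10, 8.26 and 7.98 in siNT with DMSO against 7.27, 7.46 and 7.55 in siYAP with DMSO (log2 values). It was 1.61-fold lower (log2 change -0.69, SE 0.105; limma adjusted p = 0.000226), with the siNT arrays spread over 7.98 to 8.26.

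All 5 spindle checkpoint genes fell, with a median log2 change of -0.72, and BUB1 and TTK fell at least 2-fold. BUB1 encodes a kinase at the kinetochore, and TTK encodes MPS1, the kinase that starts the checkpoint signal. BUB1 stood at 9.15, 9.12 and 9.07 on the siNT arrays with DMSO and at 7.84, 7.91 and 8.21 on the siYAP arrays with DMSO, as log2 values. It was 2.18-fold lower (log2 change -1.13, SE 0.091; limma adjusted p = 9.86e-07). For TTK the values were 9.62, 9.57 and 9.52 in siNT with DMSO and 8.39, 8.31 and 8.64 in siYAP with DMSO (2.18-fold lower). In both, siYAP replicate 3 was the highest of its group. BUB1B, which encodes BUBR1 (-0.72), and MAD2L1, which encodes the inhibitor MAD2 (-0.72), fell less, as did BUB3, which recruits BUB1 and BUBR1. BUB3 read 11.55, 11.42 and 11.47 in siNT with DMSO against 10.88, 10.79 and 10.90 in siYAP with DMSO (log2 values). It was 1.54-fold lower (log2 change -0.63, SE 0.062; limma adjusted p = 5.13e-06).

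Of the 6 centromere and kinetochore genes, CENPE, a kinetochore kinesin that brings chromosomes to the equator, fell most. CENPE stood at 8.76, 8.85 and 8.68 on the siNT arrays with DMSO and at 7.33, 7.30 and 7.49 on the siYAP arrays with DMSO, as log2 values. It was 2.62-fold lower (log2 change -1.39, SE 0.076; limma adjusted p = 5.79e-08). CENPF fell by 1.29, CENPA, the centromeric histone H3 variant, by 1.02, NDC80, which binds microtubules at the outer kinetochore, by 0.91, and ZWINT by 0.89 on the log2 scale. BIRC5 encodes survivin of the chromosomal passenger complex. In siNT with DMSO BIRC5 measured 10.28, 10.35 and 10.35, and in siYAP with DMSO 9.77, 9.95 and 9.85, as log2 values. It was 1.38-fold lower (log2 change -0.47, SE 0.062; limma adjusted p = 6.7e-05), the smallest fall of the class, with no overlap.

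TOP2A, the topoisomerase that untangles sister chromatids, and the 5 condensin genes fell with a median log2 change of -1.06. TOP2A stood at 10.46, 10.57 and 10.64 on the siNT arrays with DMSO and at 9.23, 9.01 and 9.30 on the siYAP arrays with DMSO, as log2 values. TOP2A was 2.6-fold lower (log2 change -1.38, SE 0.109; limma adjusted p = 8.81e-07). Of the non-SMC subunits of condensin I, NCAPG fell by 1.16, NCAPD2 by 1.13 and NCAPH by 0.98. Of the SMC subunits, which both condensin complexes share, SMC2 fell by 0.69 and SMC4 by 0.45 on its brightest probe set. SMC4 read 10.80, 10.89 and 10.73 in siNT with DMSO against 10.25, 10.38 and 10.44 in siYAP with DMSO (log2 values). SMC4 was 1.36-fold lower (log2 change -0.45, SE 0.072; limma adjusted p = 0.000316), the smallest fall of the 51 with the brightest probe set of each gene. Its other probe sets gave -0.98 and -0.58 in DMSO, so this place in the order depends on the probe set. Of the genes of condensin II, which were not on the list of 51, NCAPG2 fell by 0.82, NCAPD3 by 0.71 and NCAPH2 by 0.61.

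In the class of anaphase and cytokinesis, ESPL1, which encodes separase, the protease that cuts cohesin, fell most. ESPL1 stood at 9.99, 9.86 and 9.87 on the siNT arrays with DMSO and at 8.68, 8.73 and 8.74 on the siYAP arrays with DMSO, as log2 values. It was 2.28-fold lower (log2 change -1.19, SE 0.063; limma adjusted p = 4.47e-08). RACGAP1, the GTPase-activating partner of KIF23 in centralspindlin, fell by 0.96. PTTG1, which encodes securin, the inhibitor of separase, was at 12.46, 12.49 and 12.59 and 11.90, 11.87 and 11.95 in siNT and siYAP with DMSO, 1.52-fold lower. ECT2, which acts in cytokinesis, read 10.92, 10.87 and 10.80 and 10.22, 10.12 and 10.45, also 1.52-fold lower. FOXM1, a transcription factor of late cell cycle genes, fell by a small amount for this list, with only BIRC5 and SMC4 below it. In siNT with DMSO FOXM1 measured 9.92, 9.99 and 9.84, and in siYAP with DMSO 9.42, 9.51 and 9.33, as log2 values. It was 1.41-fold lower (log2 change -0.50, SE 0.063; limma adjusted p = 4.37e-05).

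**Figure D2:**
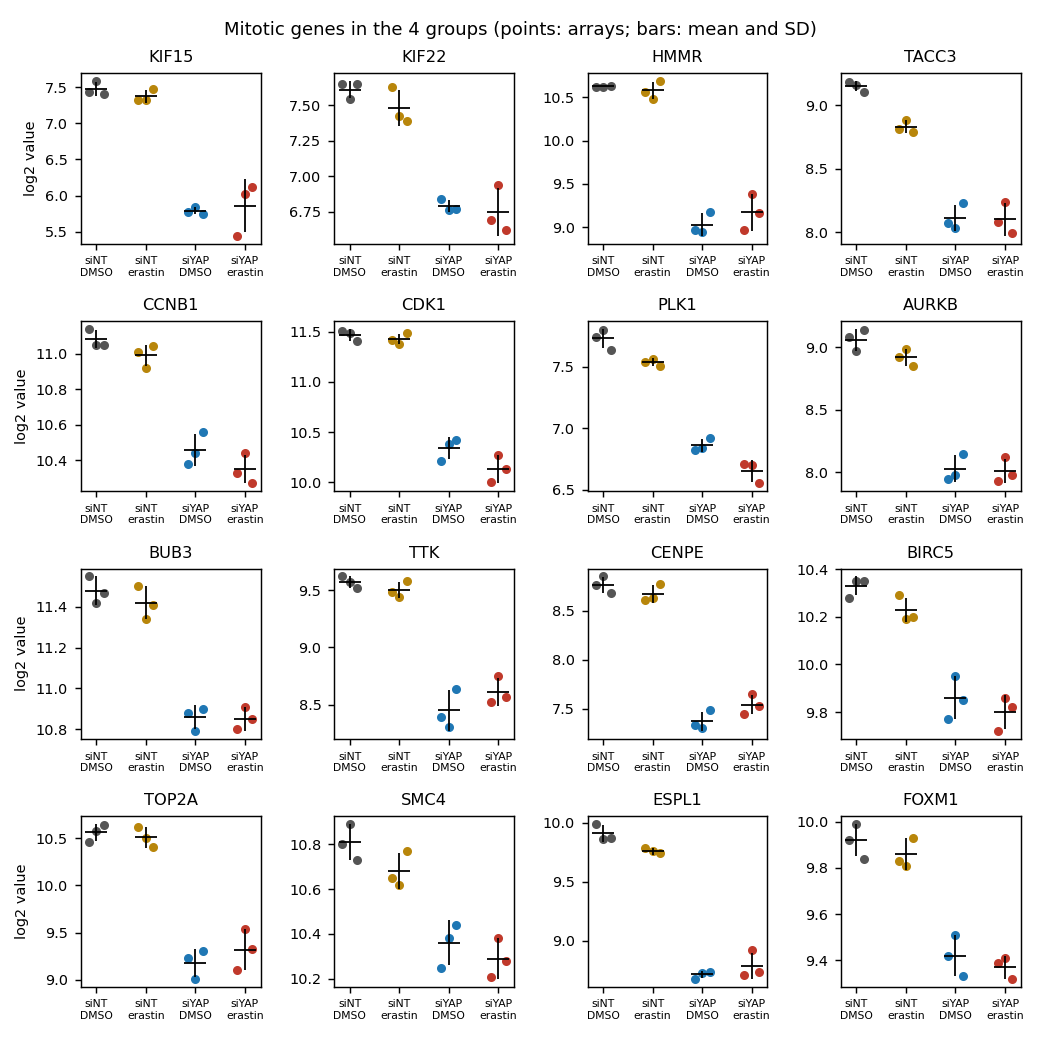
Log2 values of 16 of the genes in the 4 groups, with a point per array and bars for mean and SD (n = 3); each panel has its own axis, which does not start at 0. In every panel the 6 siYAP points lie below the 6 siNT points. The means with DMSO and erastin differ less than those of the siRNAs. In some panels DMSO and erastin points still do not overlap, as for TACC3 in siNT and PLK1 with both siRNAs.

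The fall was also seen in erastin-treated cells, in arrays not shared with the comparison in DMSO. Both comparisons use 1 estimate of the spread per gene, so their p-values are not independent. The labels do not say how separate the cultures were. All 51 genes were lower in siYAP than in siNT under erastin, where 14.8% of all genes were lower and 20% higher. The median log2 change was -0.92, 1.89-fold lower, against 0.01 over all genes, and 20 of the 51 fell at least 2-fold, which 1.44% of all genes did. Arrays did not overlap for any of the 51, as for 19.7% of all genes. By class, the median log2 change under erastin was -1.18 for spindle proteins, -1.03 for kinesins, -0.98 for the CDK1 engine, -0.94 for condensin and topoisomerase, -0.90 for mitotic kinases, -0.89 for centromere and kinetochore, -0.82 for anaphase and cytokinesis and -0.64 for the checkpoint. The checkpoint class also had the smallest median in DMSO among these 8 classes. Adjusted p-values in limma lay between 5.14e-08 and 0.0043. With both treatments together, the 6 siYAP arrays were below the 6 siNT arrays for all 51 genes and for 12.7% of all genes.

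KIF15 again fell most under erastin, with 7.33, 7.33 and 7.48 on the siNT arrays and 5.44, 6.02 and 6.12 on the siYAP arrays, 2.87-fold lower. Replicate 1 of siYAP was the lowest of all 12 arrays for it. HMMR stood at 10.56, 10.48 and 10.69 and 8.97, 9.38 and 9.16, 2.66-fold lower. CDK1 was 2.46-fold lower, from 11.42, 11.38 and 11.49 to 10.00, 10.27 and 10.13. CDK1 was among the 7 genes that fell more under erastin than in DMSO, and the other 44 fell less. Of all genes, 47.6% had a lower log2 change under erastin than in DMSO. The difference was not called in limma for any gene. The smallest falls were those of PTTG1 (1.29-fold lower), SMC4 (1.31-fold lower), BIRC5 (1.35-fold lower) and PLK4 (1.37-fold lower). PLK4 read 7.72, 7.69 and 8.05 in siNT and 7.36, 7.44 and 7.29 in siYAP under erastin and had the highest adjusted p of the 51 (limma, 0.0043). FOXM1 went from 9.83, 9.81 and 9.93 to 9.39, 9.41 and 9.32, 1.4-fold lower, and AURKB from 8.92, 8.99 and 8.85 to 7.93, 8.12 and 7.98, 1.88-fold lower. Genes are not independent replicates; across these 51 the log2 changes in DMSO and under erastin correlated at r = 0.946 (Spearman's rank correlation 0.939), and over all genes at r = 0.907. The log2 difference between the 3′ and 5′ control probe sets of ACTB, a sign of RNA integrity, was 3.35 to 3.71 in siYAP with erastin and 1.49 to 2.82 in siNT with erastin, and its part in these falls was not tested there. In DMSO it was 1.49 to 3.14 in siYAP and 2.40 to 2.97 in siNT. The same difference for GAPDH was 0.13 to 0.20 in siYAP with erastin and 0.07 to 0.22 in siNT with erastin, and 0.20 to 0.22 and 0.12 to 0.25 with DMSO.

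**Figure D3:**
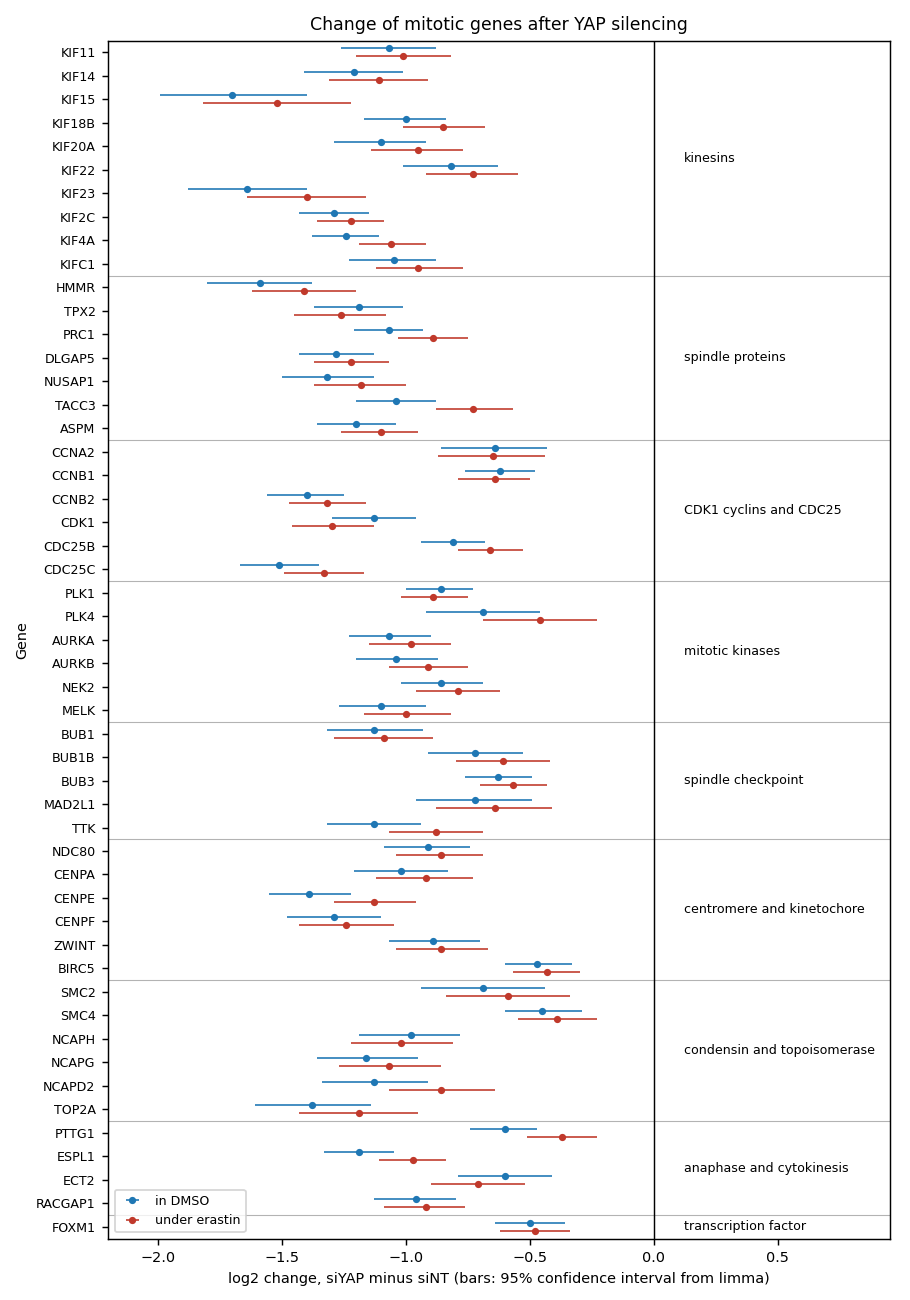
Log2 change after YAP silencing (x axis, siYAP minus siNT) of each of the 51 genes, in DMSO (blue) and under erastin (red), with 95% confidence intervals from limma. No interval reaches 0: the upper bound nearest to it is -0.29 in DMSO and -0.23 under erastin.

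In DMSO the median log2 level of the 51 genes was 9.92, 9.91 and 9.84 for siNT and 8.93, 8.95 and 9.07 for siYAP. Under erastin it was 9.79, 9.79 and 9.82 for siNT and 8.89, 9.14 and 8.94 for siYAP. The genes also moved together between arrays of the same group. Within siYAP with erastin, 49 of the 51 genes were highest on replicate 2, on which YAP1 was also highest (6.21, against 4.68 and 4.90); of all genes 31.7% were highest on that array. The median change of the 51 genes relative to siNT with erastin was a fall by 0.99, 0.81 and 1.00 on replicates 1, 2 and 3, and by 0.98 without replicate 2. Within siYAP with DMSO, 42 of the 51 genes were highest on replicate 3, as were 32.5% of all genes, with median changes of -1.17, -1.10 and -0.93. There YAP1 was highest on replicate 2 (4.88), close to replicate 3 (4.81), and lowest on replicate 1 (4.18). The median SD within a group was 0.07 and 0.08 in siNT with DMSO and with erastin, and 0.11 and 0.12 in siYAP.

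Further probe sets existed for 19 of the genes, 31 in all. Tested on their own, 24 of the 31 were lower in DMSO and 24 under erastin, and none was higher. With 1 probe set per gene, 15.6% of all genes were lower and 18.1% higher in DMSO, and 14.8% and 20% under erastin. The shares over all probe sets, bright or dim, were not counted. Of the 16 with a mean above 7.26, the median gene's level, 15 fell in DMSO and 16 under erastin, and of the 15 dimmer ones 9 and 8. The size of a fall depended on the probe set for some genes. With the probe set of largest variance, SMC4 fell by 0.98 in DMSO instead of 0.45, BUB3 by 1.02 instead of 0.63, CCNA2 by 1.07 instead of 0.64 and BIRC5 by 0.69 instead of 0.47. With the mean of all its probe sets, BUB1 fell by 0.44 instead of 1.13, KIF22 by 0.43 instead of 0.82 and CDC25C by 1.00 instead of 1.51. All of these remained called.

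Other genes of mitosis were taken from a list of 66, of which 49 were measured. In DMSO 42 of them were lower after silencing and 0 higher (median log2 change -0.89), and under erastin 41 were lower and 0 higher (median -0.76). Over all genes the shares lower and higher were 15.6% and 18.1% in DMSO and 14.8% and 20% under erastin. The largest falls in DMSO were those of HJURP, the chaperone that loads CENPA (-1.68), DEPDC1 (-1.55), CENPI, a kinetochore protein (-1.45), and CDC25A, a CDK phosphatase (-1.39). Under erastin HJURP fell by 1.74, CEP55, an abscission protein, by 1.35, DEPDC1 by 1.34 and CENPU by 1.16. HJURP read 9.35, 9.32 and 9.29 in siNT with DMSO and 7.56, 7.73 and 7.63 in siYAP with DMSO, and these groups did not overlap.

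Other kinesins, kinesin light chains and the kinesin-associated gene KIFAP3 (transport kinesins here), most of them known for transport in interphase, gave another picture. Of 20 measured, 4 fell and 6 rose in DMSO (15.6% and 18.1% of all genes), with a median of 0.02, and 5 fell and 5 rose under erastin (14.8% and 20% of all genes). The 4 that fell in DMSO became 2 without siNT replicate 2, siYAP replicate 1 or siYAP replicate 3 with DMSO, and the 5 under erastin became 3 without the dimmest 30% of genes. KIF3A, a motor of cilia, read 7.41, 7.47 and 7.43 in siNT with DMSO and 8.17, 7.98 and 8.09 in siYAP with DMSO, a rise of 0.64, and it rose by 1.00 under erastin. KIF16B rose by 0.46 in DMSO and by 0.58 under erastin. In the same order, KIF21B fell by 0.84 and 0.86, and KIF26B fell by 0.70 and 0.31. KIF2A, a relative of KIF2C and not mainly a transport motor, was in this list and passed in neither comparison. It changed by 0.00 in DMSO (limma adjusted p = 0.993) and by -0.05 under erastin (0.786). All 10 kinesins among the 51 genes fell in both comparisons. The transport kinesins were dimmer, with a median level of 7.13 to 7.38 per array, against 8.22 to 9.50 for those 10 kinesins. The dimmest transport kinesin, KIF5A, averaged 3.53. The part of signal level in this contrast was not tested. Of 10 genes of cohesin and its loaders 4 fell and 1 rose in DMSO, with a median of -0.18. SMC1A, an SMC subunit of cohesin, was the 1 that rose, by 0.59, from 9.90, 9.85 and 9.79 to 10.43, 10.37 and 10.52. SMC3, also an SMC subunit of cohesin, changed by -0.32 in DMSO and was not called (limma adjusted p = 0.115). No test compared these lists with the 51 genes.

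Genes of the factors that bind late cell cycle promoters were uneven. Of 15 measured genes of MuvB, MYB, E2F, pocket protein and NF-Y factors and their regulators, 7 fell and 1 rose in DMSO, and 9 fell and 3 rose under erastin, where all genes had 15.6% lower and 18.1% higher in DMSO and 14.8% and 20% under erastin. E2F5, an E2F that partners pocket proteins, fell most. E2F5 read 8.53, 8.58 and 8.34 in siNT with DMSO against 6.35, 6.33 and 6.19 in siYAP with DMSO (log2 values). It was 4.58-fold lower (log2 change -2.19, limma adjusted p = 2.59e-08). RBL1, which encodes the pocket protein p107, fell by 1.57, the repressor gene E2F8 by 1.12 and MYBL2, which encodes B-MYB, by 0.62. The 3 NF-Y subunit genes differed in their calls. NFYB fell by 0.37 in DMSO (limma adjusted p = 0.0123) and by 0.48 under erastin (0.00235). NFYC changed by 0.09 in DMSO (adjusted p = 0.185) and rose by 0.14 under erastin (0.0428). NFYA passed in neither, with log2 changes of 0.05 (adjusted p = 0.671) and -0.10 (0.354). E2F4 did not pass in DMSO (0.08, adjusted p = 0.486). CDKN1A, the p21 inhibitor of CDKs, changed by -0.11 (adjusted p = 0.112) in DMSO and fell by 0.21 under erastin (adjusted p = 0.00415).

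**Figure D4:**
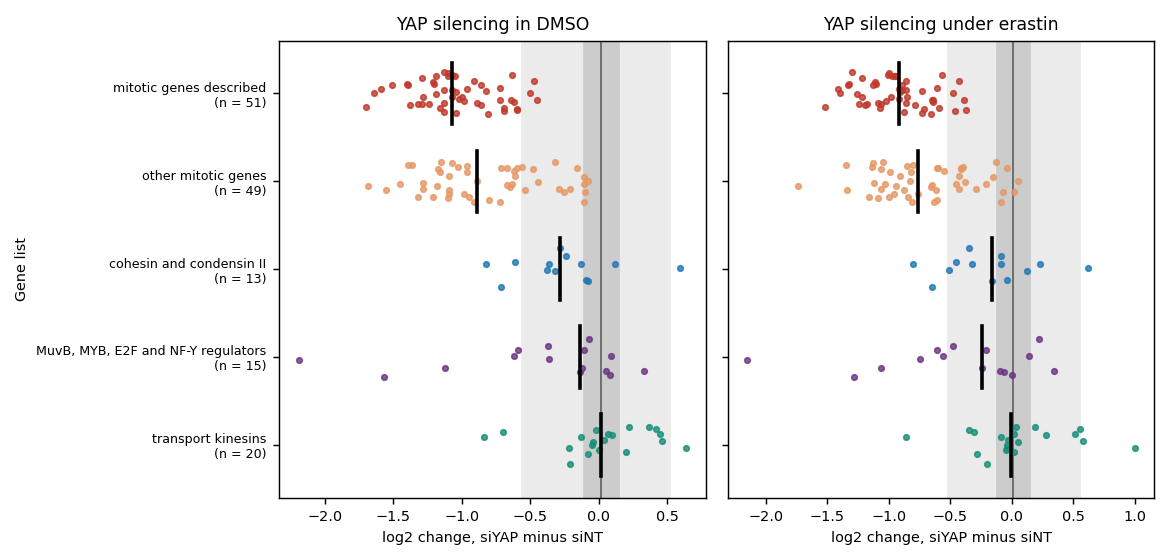
Log2 change after YAP silencing (x axis) of the 51 mitotic genes and of 4 other gene lists (rows, a point per gene, black bar at the median), in DMSO (left) and under erastin (right). Grey bands hold the middle 50% (dark) and 90% (light) of all 11963 genes; the medians of the 51 genes, -1.07 and -0.92, lie outside the light band, and that of the transport kinesins lies at its centre.

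Erastin itself changed none of the 51 genes past the threshold. In siNT cells, limma called 0 of 51 at an adjusted p under 0.05, where 0.752% of all genes were called, and 11 of 51 had an unadjusted p under 0.05, as did 10.6% of all genes. In siYAP cells it called 0 of 51 (0.334% of all genes), with 3 at an unadjusted p under 0.05, against 10.7% of all genes. The 95% intervals of the 51 log2 changes lay within -0.52 to 0.26 in siNT cells and -0.38 to 0.38 in siYAP cells. These comparisons share their siNT or siYAP arrays with those of silencing. In siNT cells the change was below 0 for 47 of the 51 genes, as for 51.6% of all genes, with a median of -0.11. For 19 of the 51 all erastin arrays lay below all DMSO arrays, as for 8.51% of all genes. In siYAP cells 28 of the 51 were below 0, against 49.3% of all genes, and the erastin arrays lay below the DMSO arrays for 1, against 10.4% of all genes.

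The lowest adjusted p in siNT cells was that of TACC3. It read 9.18, 9.16 and 9.10 with DMSO and 8.81, 8.88 and 8.79 with erastin, a log2 change of -0.32 (SE 0.073, limma adjusted p = 0.0792). These arrays did not overlap. TACC3 passed the threshold in 3 alternative settings, without the dimmest genes (adjusted p = 0.0368), with trended and robust variances (0.0199) and with array weights (0.0232). PLK4 was next in size at -0.29 (adjusted p = 0.338), with 8.10, 8.26 and 7.98 with DMSO and 7.72, 7.69 and 8.05 with erastin, which overlap, and it passed with array weights (0.0343). NDC80 had the highest change, 0.09 (adjusted p = 0.793).

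The difference between both erastin responses, which equals the difference between both silencing effects, was not called for any of the 51 genes or of all 11963 in limma (0% called). At an unadjusted p under 0.05 there were 4 of the 51, and 9.86% of all genes. It was below 0 for 7 of the 51 and for 47.6% of all genes, with a median of 0.09, and the 95% intervals lay within -0.40 to 0.60. The largest was that of TACC3, 0.31 (interval 0.09 to 0.54, adjusted p = 0.428), followed by NCAPD2 (0.27) and CENPE (0.26, adjusted p = 0.481). The lowest was that of CDK1, -0.17 (adjusted p = 0.635). A test that misses the threshold does not show that the responses were alike.

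**Figure D5:**
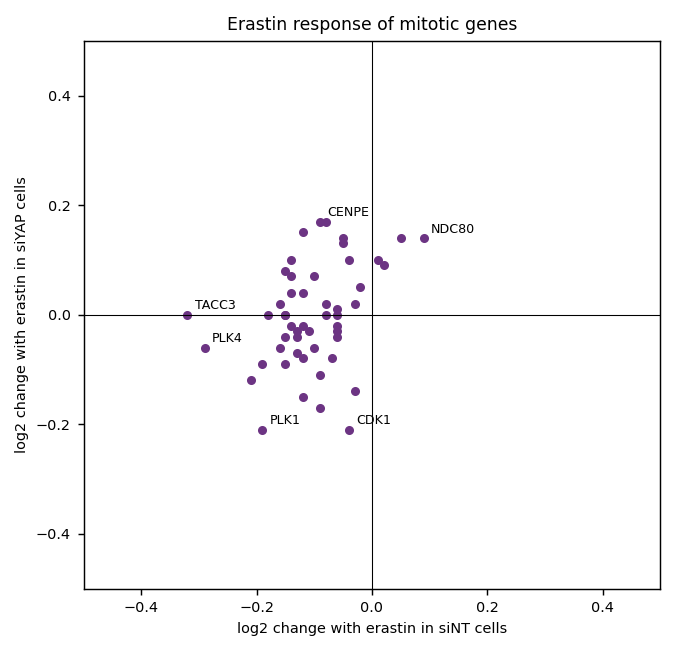
Log2 change with erastin in siNT cells (x axis) and in siYAP cells (y axis), a point for each of the 51 genes. The points spread from -0.32 to 0.09 along x and from -0.21 to 0.17 along y; none passed the test in either, and TACC3 is farthest to the left.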

How the data were processed

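The authors' tools were RMA and Affymetrix Expression Console, per the submitters' processing notes, with no version stated there. The deposited log2 values ran from 2.02 to 14.4 and were equalised between arrays, so a shift in all RNA of a cell is not visible and dim genes' changes are compressed.

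Sample titles gave the groups and the replicate numbers. Of 22277 probe sets (62 controls), 19065 had exactly 1 gene symbol in the platform annotation, 1043 several and 2107 none; only the first kind was used, and RefSeq gene identifiers matched 19053 and changed 0 symbols. Each of 11963 genes took its brightest such probe set by the mean of 12 arrays. Group means were fitted over all 12 arrays with limma 3.58.1 in R 4.3.3 (8 residual and 4.17 prior degrees of freedom), with Benjamini-Hochberg adjustment over all genes within each of 5 comparisons and calls at an adjusted p under 0.05. The fit was tested on simulated data. The labels describe biological triplicates but not how separate the cultures were, so p-values reflect only how much these samples differ, which may be technical.

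The 51 genes and the other lists were chosen with earlier results of these data known. All 51 could be named; values per array are given for the largest and smallest change of each class in DMSO and for CDK1, CCNB1, PLK1, AURKA, AURKB, TOP2A, BIRC5 and FOXM1, and up to 4 called genes are named from each other list. TTK, PTTG1, CCNB2, KIF23 and other genes named beside these were added after their values were seen. Promoter windows are RefSeq's, GRCh38.p14. Scan dates were not used here, and no batch was tested.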

Additional observations from a re-analysis of the deposited data

How the results depend on the processing

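All 51 genes stayed lower after silencing, in DMSO and under erastin, in each fit with another set of arrays, scaling, filter, probe set choice or variance model, and when each probe set was tested on its own, an alternative chosen after seeing the data. Leaving out each of the 12 arrays gave 51 in both, with medians of -1.12 to -1.02 and -0.98 to -0.90. Stricter calls gave fewer. With a 2-fold minimum there were 31 in DMSO and 20 under erastin, against 1.78% and 1.44% of all genes. The design text names a subtraction of the control mean. With it, and a threshold chosen here of 1 log2 unit in each of 3 arrays, there were 19 and 12. The share of all genes passing that threshold was not counted. For erastin in siNT cells the count of 0 became 1 without the dimmest 30% of genes, 1 with trended and robust variances, and 2 with array weights; leaving out arrays kept it at 0. With the replicate number as a block the counts were 51 and 51 for silencing and 0 for erastin and the interaction. Same-numbered arrays did not deviate together (correlations of deviations from -0.42 to 0.19 in 18 pairs; 1 of 12 arrays correlated best with its own number), so the numbers were not taken as pairs. Of transport kinesins, 4 called lower in DMSO became 2 without siNT replicate 2, siYAP replicate 1 or siYAP replicate 3. Motif shares stayed within their Wilson intervals, of which only that for CHR is given above. This held in a window from 100 bases before to 50 after the start site (CHR 56.8%, against 4.42% of all windows). Over any listed start site, chosen after seeing the data, it also held (CHR 68.2%, against 15.6%). Dim probe sets limit what can be seen of small changes.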
